A study of Mus musculus with 25 samples.

Results

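The genes described here mostly encode the ubiquitin-conjugating enzymes and the subunits and helpers of the proteasome. Symbols of the former begin with Ube2, and those of the latter with Psm and a letter from a to g followed by a digit. All were taken from the protein-coding genes of the GENCODE vM1 annotation of the mouse genome build mm9. This gave 86 genes of 22208, of which 36 were Ube2 genes and 50 were Psm genes. One of the latter, Psmc3ip, fits the symbol pattern but encodes a meiotic recombination protein. Membership rested on the symbol alone. Ube2cbp, named as a binding protein, and Psme2b-ps, named as a pseudogene, were therefore counted too, and neither had a final location. For each gene the binding locations of the transcription factors GATA1 and TAL1 that lay in the gene body or within 10 kb of it were counted.

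GATA1 and TAL1 were mapped by ChIP-exo, in which an exonuclease trims immunoprecipitated DNA up to the cross-linked protein, so that binding is placed to within a few bases. The cells were G1E, a mouse erythroid progenitor line of strain 129 that lacks GATA1, and its derivative G1E-ER4, in which GATA1 fused to the estrogen binding domain of the estrogen receptor was put back and is switched on by estradiol, upon which the cells mature. The GATA1 antibody (sc265) gave 1 library from G1E and 3 libraries from G1E-ER4 per time point (0, 3 and 24 h of estradiol), and the TAL1 antibody (sc12984) gave 4 from G1E and, by the same order of times, 5, 3 and 3 from G1E-ER4. The 3 and 24 h cells received 10 nM beta-estradiol by the sample labels, while the methods of the study state a higher dose, and both lines are single lines in culture, so that the libraries are not separate animals.

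Each factor had 3 lists of positions, in which libraries were combined, and whether the GATA1 library of G1E cells entered the GATA1 lists is not known. Peak pairs are matched peaks on opposite strands, MultiGPS locations are calls of a binding model, and the final list holds the MultiGPS locations that lay at most 100 bp from a peak pair. The final list held 10290 GATA1 and 15209 TAL1 locations. Every entry was a single base with no tag count, time point or replicate, so that depth was unknown, no spread between libraries could be given, and no time course or difference between the lines could be read. Expression was not analysed here.

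Ubiquitin is a small protein that marks others for destruction. An activating enzyme (E1) charges it and passes it to a conjugating enzyme (E2, the Ube2 family), which works with a ligase (E3) to attach it to a target, and the proteasome, a barrel of alpha and beta subunits capped by a regulatory particle with ATPases, degrades the tagged protein. Maturing erythroid cells use this route to clear much of their proteome, and Ube2o and Ube2h are E2 enzymes known for high levels in late erythroid cells.

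GATA1 and TAL1 lay under 40 bp apart, here called cooccupied, at 11 of the 86 genes (12.8%), near the 11.1% of all protein-coding genes. The sequences around the GATA1 location of 10 such sites, where TAL1 lay 1 to 20 bp away, are shown. These are the sites closest to a start site of their gene. Each sequence is the 81 bases of the plus strand of mm9 with the GATA1 position in the middle. Capitals mark the GATA motif WGATAA, that is AGATAA or TGATAA, or its reverse complement, and the bases TG that lie 7 or 8 bp upstream of it on the same strand (CA where the motif is reversed).
Psme3 (chr11:101177072-101177152): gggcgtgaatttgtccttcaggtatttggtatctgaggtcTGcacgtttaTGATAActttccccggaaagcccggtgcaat
Psmd11 (chr11:80266845-80266925): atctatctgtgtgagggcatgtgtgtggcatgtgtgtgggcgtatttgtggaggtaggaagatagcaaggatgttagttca
Ube2v1 (chr2:167454418-167454498): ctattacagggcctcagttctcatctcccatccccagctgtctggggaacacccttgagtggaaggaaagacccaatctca
Ube2h (chr6:30257825-30257905): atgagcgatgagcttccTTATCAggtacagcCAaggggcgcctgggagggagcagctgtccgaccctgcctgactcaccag
Psmb2 (chr4:126359703-126359783): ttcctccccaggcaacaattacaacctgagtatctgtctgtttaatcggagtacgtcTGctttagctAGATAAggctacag
Psmc6 (chr14:45941454-45941534): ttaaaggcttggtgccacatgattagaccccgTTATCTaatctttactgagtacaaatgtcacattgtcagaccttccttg
Ube2c (chr2:164587145-164587225): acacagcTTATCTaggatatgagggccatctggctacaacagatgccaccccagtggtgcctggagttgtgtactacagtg
Ube2c (chr2:164585723-164585803): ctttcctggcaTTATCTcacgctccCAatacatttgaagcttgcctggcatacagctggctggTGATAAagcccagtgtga
Psmd7 (chr8:110101642-110101722): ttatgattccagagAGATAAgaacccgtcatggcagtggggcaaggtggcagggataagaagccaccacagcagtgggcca
Ube2l6 (chr2:84652133-84652213): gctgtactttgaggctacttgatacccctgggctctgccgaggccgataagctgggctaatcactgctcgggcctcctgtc
Of these 10 windows, 7 held WGATAA, and at 4 of them (Psme3, Ube2h, Psmb2 and the farther of the Ube2c sites) it had TG at the stated spacing, the layout of the joint GATA1 and TAL1 motif. The windows at Psmd11, Ube2v1 and Ube2l6 had no WGATAA. The nearer Ube2c window overlaps an exon annotated as a 7SK RNA, a small RNA with many copies in the genome, and no other window overlapped an annotated exon.

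The share of genes with a GATA1 location was larger among Ube2 than among Psm genes, and both shares were above that of all protein-coding genes. A final GATA1 location was found at 18 of 36 Ube2 genes (50%; 95% exact binomial interval, 32.9 to 67.1%) and at 16 of 50 Psm genes (32%; 19.5 to 46.7%), against 23.9% of all protein-coding genes. The interval of the Ube2 genes lay above the share of all genes and that of the Psm genes included it. Intervals here and below cover counting error only and treat genes or locations as independent, although neighbors can share them. The difference between the families was not tested, and their intervals overlapped.

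TAL1 differed less. A final TAL1 location was found at 11 Ube2 genes (30.6%; 16.3 to 48.1%) and at 13 Psm genes (26%; 14.6 to 40.3%), against 21.3% of all genes, a share that both intervals included. Both factors had a location at 9 Ube2 genes (25%) and 11 Psm genes (22%), against 16.3% of all genes. A cooccupied location was found at 6 Ube2 genes (16.7%) and 5 Psm genes (10%), against 11.1% of all genes, so that the Psm share was near the background. With GATA1 and TAL1 under 100 bp apart the counts were 6 (16.7%) and 10 (20%), against 13.8% of all genes, and with 50 kb around the body they were 10 (27.8%) and 20 (40%), against 23.6%, so that the order of the families turned in both.

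The order of the families depended on the list and on the distance. In the MultiGPS lists, 21 Ube2 genes (58.3%) and 20 Psm genes (40%) had a GATA1 entry, against 27.5% of all genes, and 11 (30.6%) and 14 (28%) had a TAL1 entry, against 24.8%. Among the peak pairs, which were the most permissive list, GATA1 entries lay at 24 Ube2 genes (66.7%) and at 36 Psm genes (72%; 57.5 to 83.8%), against 48.4% of all genes. TAL1 pairs lay at 21 Ube2 genes (58.3%) and 26 Psm genes (52%), against 50.1%. With 50 kb in place of 10 kb around the body, a final GATA1 location lay at 22 Ube2 genes (61.1%) and 34 Psm genes (68%), against 42.7% of all genes, and TAL1 at 18 (50%) and 33 (66%), against 40.3%, which turned the order for both factors. The plot of shares by list shows the first of these: the Psm genes went from the higher to the lower GATA1 share between peak pairs and final locations.

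**Figure D1:**
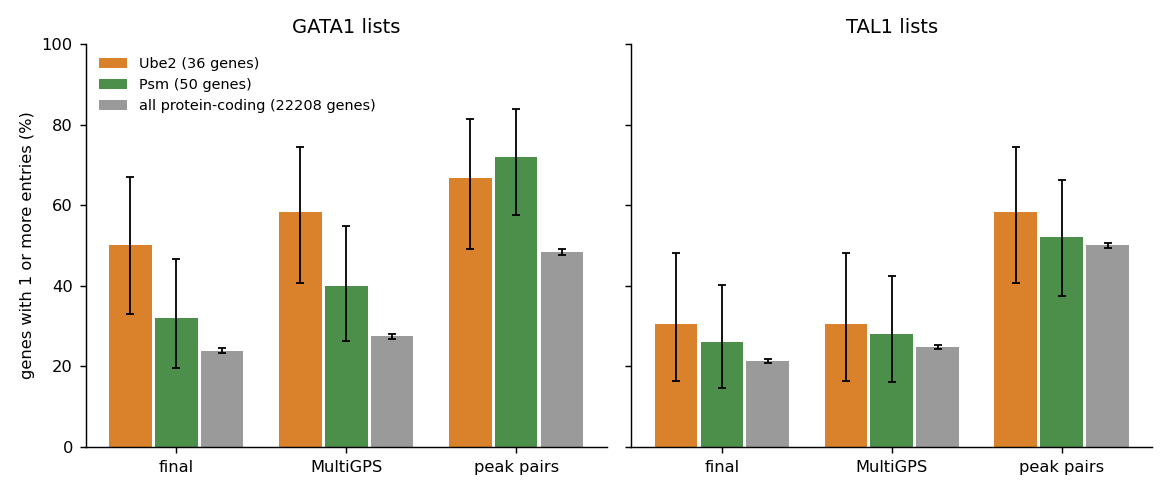
Share of genes (%) with 1 or more entries in the body or within 10 kb, by list, for the 36 Ube2 genes, the 50 Psm genes and all 22208 protein-coding genes, with GATA1 on the left and TAL1 on the right. Bars are shares and error bars are 95% exact binomial intervals. The GATA1 share of the Ube2 genes was 50% in the final list and 66.7% among peak pairs, while that of the Psm genes was 32% and 72%.

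Ube2 genes are longer, with a median body of 30.4 kb against 11.6 kb for the Psm genes and 15.5 kb for all genes, and longer genes have more room for a location. Among genes under 10 kb, GATA1 was found at 3 of 6 Ube2 genes and at 7 of 22 Psm genes (31.8%), against 14.1% of all genes of that length. From 10 to 30 kb it was found at 6 of 11 Ube2 genes (54.5%) and at 5 of 20 Psm genes (25%), against 24.8%, and at 30 kb or more at 9 of 19 (47.4%) and 4 of 8 (50%), against 34.9%. The Ube2 share of GATA1 thus changed little with length, and the Psm genes stood above all genes of like length only below 10 kb and at 30 kb or more. The 7 Psm genes below 10 kb had their GATA1 locations in the flanks only, and Psme1 and Psme2 among them shared theirs. The groups are small, and no intervals were computed by length.

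For TAL1, the same steps gave 1 of 6, 2 of 11 and 8 of 19 Ube2 genes (16.7, 18.2 and 42.1%), and 7 of 22, 2 of 20 and 4 of 8 Psm genes (31.8, 10 and 50%). All genes of these lengths had 11.8, 21.8 and 32.3%. Per Mb of gene body with its flanks, final GATA1 locations numbered 13.9 at Ube2 genes and 12.6 at Psm genes, against 7.12 over all genes, and TAL1 locations 17.8 and 11.6, against 10.1. In the gene bodies alone the TAL1 density of Ube2 genes was 8.22 per Mb, below the 8.89 of all genes. Counted per length with the flanks, the families therefore lay closer to each other in GATA1 than by the share of genes.

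**Figure D2:**
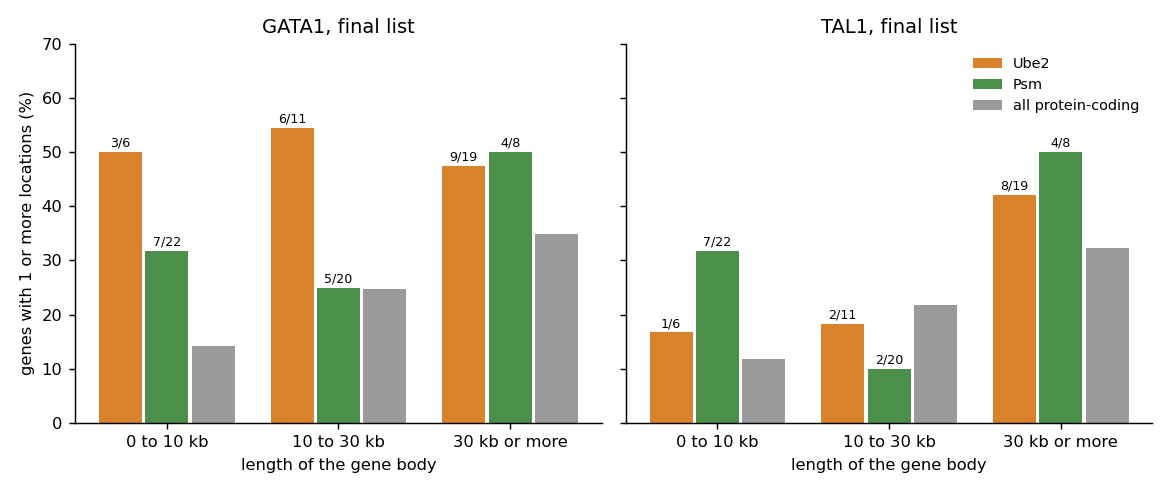
Share of genes (%) with 1 or more final locations, by length of the gene body, with GATA1 on the left and TAL1 on the right. Numbers above the bars are genes with a location over genes in the group. In GATA1 the Ube2 bars stood above those of all genes in each length group, and from 10 to 30 kb the Psm bar was at 25% against 24.8%.

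In all, 38 of the 86 genes had a final location of either factor (44.2%; 33.5 to 55.3%), against 29% of all genes. The plot of counts per gene shows how unequally they were spread: the final locations summed over genes were 32 of GATA1 and 41 of TAL1 at Ube2 genes, and 25 and 23 at Psm genes, and Ube2l6 alone had 11 of the TAL1 locations.

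**Figure D3:**
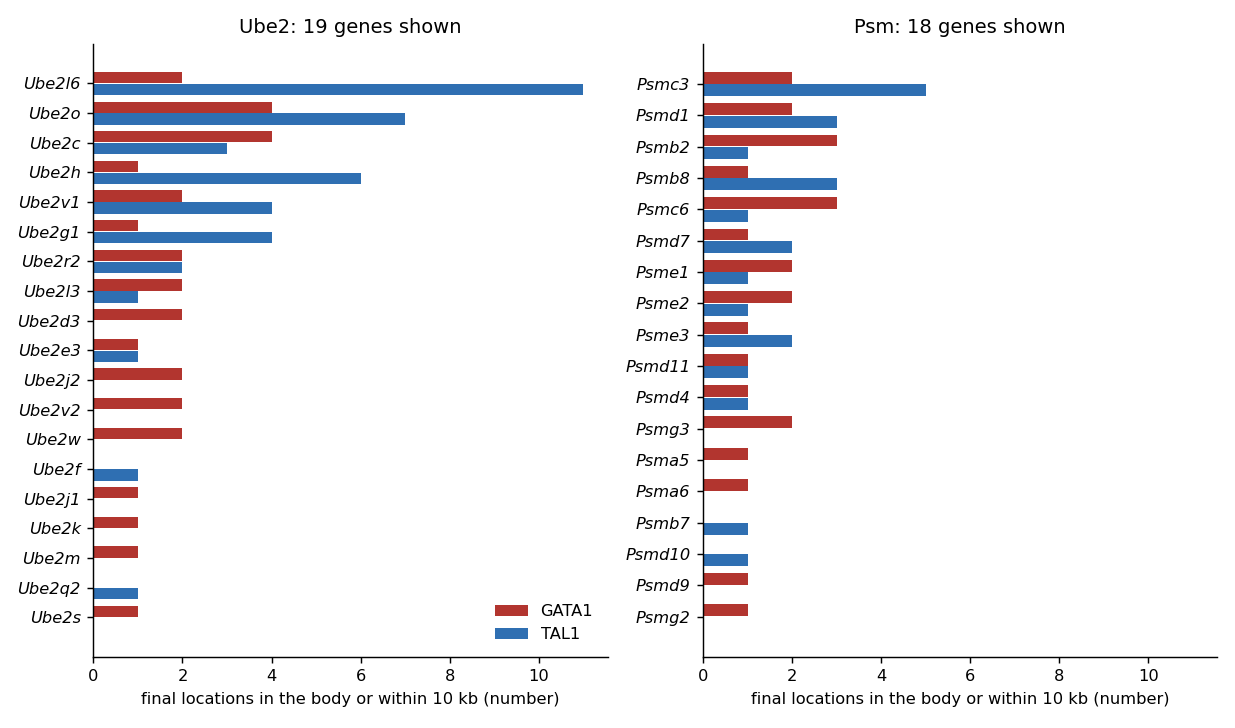
Number of final GATA1 and TAL1 locations in the body or within 10 kb for 37 of the 38 genes that had one, 19 of them Ube2 and 18 of them Psm genes. Ube2l6 with 11 and Ube2o with 7 TAL1 locations lead the Ube2 genes, and Psmc3 with 5 leads the Psm genes.

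Among E2 enzymes of ubiquitin, Ube2o had the most final locations of both factors summed, followed by Ube2h and Ube2c, which tied. Ube2o, a large enzyme that acts as E2 and E3 in one and removes proteins from reticulocytes, had 4 GATA1 and 7 TAL1 locations, and 13 and 24 peak pairs. In an intron, 1212 bp past the closest start site, a GATA1 location lay 40 bp from a TAL1 location, just outside the limit for cooccupancy. Its cooccupied site lay past the end of the gene, 44628 bp from the start and nearer to the start of Sphk1, which was the closest start for 2 of its GATA1 and 4 of its TAL1 locations. The start of Aanat was closest to another GATA1 location.

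Ube2h, the E2 of the CTLH ligase, had 1 GATA1 and 6 TAL1 locations and 13 and 20 peak pairs. The GATA1 location lay 3326 bp upstream of its start, 1 bp from a TAL1 location, and 4 TAL1 locations formed a cluster there with a span of 273 bp, from 3181 to 3454 bp upstream. Each of these 4 had 6 or 7 TAL1 pairs within 100 bp, where the same pair could count for more than 1 of them. The sequence printed above for Ube2h holds WGATAA with TG upstream and an E-box (CAGATG or CAGCTG, read on both strands), the motif of TAL1 and its partners.

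Ube2c and Ube2s serve the anaphase-promoting complex in mitosis, the first starting ubiquitin chains and the second extending them. Ube2c had 4 GATA1 and 3 TAL1 locations. It had 2 cooccupied GATA1 locations, 8213 and 9635 bp upstream of its start and inside the body of the neighboring gene Dnttip1. The first of these is in the window that overlaps the 7SK copy, where the uniqueness of the sequence was not checked. Ube2s had 1 GATA1 location, 5392 bp past its start, and none of TAL1.

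Ube2l3, an E2 for ligases that take ubiquitin onto a cysteine of their own, had 2 GATA1 locations and 1 of TAL1 in its introns. GATA1 and TAL1 lay 22 bp apart about 19.9 kb into the gene. Ube2g1, which makes chains with cullin ligases, had 1 GATA1 and 4 TAL1 locations, but all had the start of Ankfy1 as the closest one. Ube2r2, which serves the SCF ligases, had 2 of each, with 1 GATA1 and 1 TAL1 location 143 bp apart upstream of the gene. Ube2e3 had 1 of each, 52347 bp apart.

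Among the E2 enzymes of other ubiquitin-like proteins were Ube2m and Ube2f (NEDD8) and Ube2l6 (ISG15). Ube2m had 1 GATA1 location and none of TAL1, while Ube2f had 1 TAL1 location and none of GATA1. Ube2l6 had 2 GATA1 and 11 TAL1 locations, the most TAL1 locations of any of the 86 genes. At its start, GATA1 lay 91 bp and TAL1 49 bp upstream, 42 bp apart and thus not counted as cooccupied.

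A further 9 TAL1 locations of Ube2l6 lay downstream of it in a cluster of 412 bp, 13049 to 13461 bp past its start. They were inside the body of Smtnl1, whose start was the closest one. They had 4 to 9 TAL1 pairs each within 100 bp, 3 of them lay under 40 bp from the single GATA1 location there, and 2 had WGATAA within 40 bp. Among the 3 were the adjacent bases 84652183 and 84652184, listed as separate entries. The same pair was counted for more than 1 location, since the whole window of Ube2l6 held 23 TAL1 pairs. Whether the locations of this cluster belong to Ube2l6 or to Smtnl1 cannot be told apart from the lists.

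Ube2v1 and Ube2v2 are variants that lack the catalytic cysteine and work as partners of Ube2n. Ube2v1 had 2 GATA1 and 4 TAL1 locations, and its TAL1 locations formed a cluster of 205 bp in the gene, 2859 to 3064 bp past the start, with 1 GATA1 location 4 bp from the nearest of them. All its final locations also lay in the body of Tmem189, a gene that overlaps it. No location of that cluster had WGATAA, and the printed window holds an E-box. Ube2v2 had 2 GATA1 locations, 1 of them 84 bp upstream of its start, and none of TAL1. Ube2n itself had no final location of either factor.

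At 9 of the 36 Ube2 genes (25%; 12.1 to 42.2%) there was GATA1 but no TAL1 in the final lists, against 7.64% of all genes. Among them were Ube2d3, Ube2j1, Ube2j2, Ube2k, Ube2m, Ube2s, Ube2v2 and Ube2w. They had 13 GATA1 locations, and the nearest final TAL1 location was a median of 156621 bp and up to 271311 bp away. None of the 9 had a TAL1 entry in the MultiGPS list, and 4 of them (Ube2j2, Ube2m, Ube2s and Ube2w) had a TAL1 peak pair. The same pattern was found at 5 Psm genes (10%), namely Psma5, Psma6, Psmd9, Psmg2 and Psmg3.

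TAL1 without GATA1 was rarer, at 2 Ube2 genes, Ube2f and Ube2q2 (5.56%), and 2 Psm genes, Psmb7 and Psmd10 (4%), against 5.07% of all genes. Both Ube2 genes had a GATA1 location in the MultiGPS list that was not close to a peak pair, and at Ube2q2 it lay 56 bp from the TAL1 location. No final location of either factor lay at 16 Ube2 genes (44.4%) and 32 Psm genes (64%), against 71% of all genes. In none of the 6 lists were 8 Ube2 genes (22.2%), among them Ube2a and Ube2b, and 12 Psm genes (24%), against 36.1% of all genes.

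In the proteasome, locations were found in each part of the complex, with no TAL1 location at any of the 8 alpha subunit genes or the 4 Psmg genes, which encode chaperones of core assembly. Over all protein-coding genes the shares to read these counts against are 23.9% for GATA1 and 21.3% for TAL1, and each part has few genes. Of the alpha subunit genes, 2 had a GATA1 location, a share near that of all genes, Psma5 and Psma6, each with 1 in an intron. Of the 11 beta subunit genes, Psmb2 and Psmb8 had both factors and Psmb7, a catalytic subunit, had TAL1 alone, 43055 bp into the gene.

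Psmb2, a structural beta subunit, had 3 GATA1 locations, 147 bp upstream of its start and 3744 and 4869 bp past it, each with WGATAA within 40 bp. Its only TAL1 location lay 2 bp from the last of them. Psmb8, a catalytic subunit of the immunoproteasome, had 1 GATA1 and 3 TAL1 locations, all downstream of it inside the body of Tap2, with the 3 TAL1 locations in a cluster of 296 bp.

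Of the 6 ATPase genes of the base, 2 had locations of both factors, Psmc3 and Psmc6. Psmc3 had 2 GATA1 and 5 TAL1 locations, and 4 of the latter formed a cluster of 359 bp in an intron, where a GATA1 location lay 58 and 59 bp from its TAL1 neighbors. Psmc6 had 3 GATA1 locations, 36 bp past its start in a coding exon, 1656 bp upstream, and 8010 bp upstream, where TAL1 lay 20 bp away but the start of Ero1l was closer.

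Among the 14 Psmd genes, which encode the other subunits of the regulatory particle and some of its assembly chaperones, 5 had GATA1 and 5 had TAL1. Psmd4, a ubiquitin receptor, had 1 of each, 297 bp apart and 4254 and 3957 bp upstream. Psmd7, the partner of the deubiquitinating subunit, had GATA1 and TAL1 7 bp apart downstream of the gene, and a second TAL1 location beside them. Psmd11, a scaffold subunit, had 1 of each, 18 bp apart in an intron. Psmd1, the largest scaffold subunit, had 2 GATA1 and 3 TAL1 locations in introns near its end, where the start of Armc9 was closer. Psmd9, an assembly chaperone of the base, had GATA1 68 bp upstream of its start, and Psmd10, another, had TAL1 in a coding exon.

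The activators Psme1, Psme2 and Psme3 had both factors. Psme1 and Psme2, the subunits of the activator induced by interferon, are neighbors on chromosome 14 and shared the same 2 GATA1 locations and 1 TAL1 location, whose closest start was that of Fam158a. Psme3, the nuclear activator, had GATA1 415 bp upstream of its start and TAL1 426 and 547 bp upstream, and its printed window holds the joint motif. Of the Psmg genes, Psmg2 had 1 GATA1 location 326 bp past its start and Psmg3 had 2, nearest to the start of Tmem184a. Psmc3ip had no final location, and 2 GATA1 pairs and 1 TAL1 pair.

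**Figure D4:**
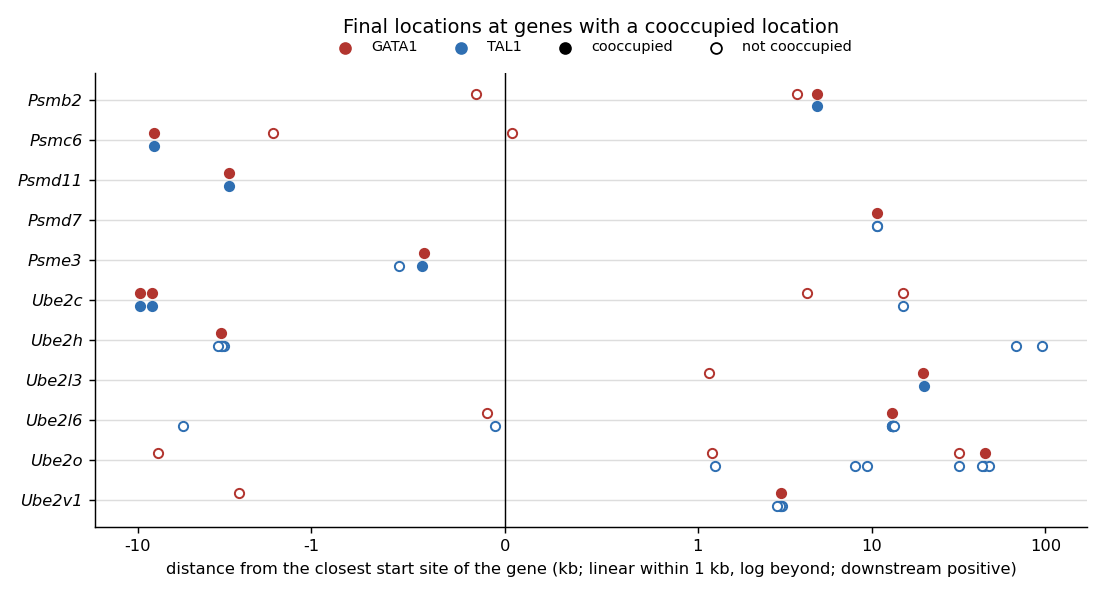
Distance (kb) of each final location from the closest start site of its gene, for the 11 genes with a cooccupied location, with red for GATA1 and blue for TAL1. The axis is linear within 1 kb of the start and logarithmic beyond it. Filled circles are cooccupied, open circles are not, and locations a few bases apart overlap. The cooccupied locations of Psme3 lay 415 and 426 bp upstream of its start, and those of the other 10 genes lay more than 1 kb away.

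Of the 55 GATA1 locations, 7 (12.7%) lay within 1 kb of a start site of the gene, and of the 63 TAL1 locations 3 (4.76%). In the whole lists 10.4% of GATA1 and 7.46% of TAL1 locations lay within 1 kb of any start. These shares cannot be set against each other, since the former leave out the starts of other genes. Among such starts were that of Sphk1, 9 bp from a TAL1 location of Ube2o, and that of Armc9, 174 bp from one of Psmd1. Within 1 kb of a start site of the gene, GATA1 was found at 2 Ube2 genes (5.56%), Ube2l6 and Ube2v2, and at 5 Psm genes (10%; 3.33 to 21.8%), Psmb2, Psmc6, Psmd9, Psme3 and Psmg2, against 4.57% of all genes. TAL1 was found there at Ube2l6 (2.78%) and Psme3 (2%), against 2.81%. Inside the gene body, GATA1 lay at 11 Ube2 genes (30.6%) and 8 Psm genes (16%), against 14.4%, and TAL1 at 6 (16.7%) and 6 (12%), against 12.9%.

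A location was also linked to the gene with the closest start, at most 50 kb away. By that link GATA1 was found at 16 Ube2 genes (44.4%) and 14 Psm genes (28%), against 19.5% of all genes, and TAL1 at 10 (27.8%) and 12 (24%), against 17.8%. Of the 55 different GATA1 locations at the 86 genes, 38 (69.1%) had the gene's own start as the closest, and of the 63 TAL1 locations 35 (55.6%). In the body of another protein-coding gene lay 12 GATA1 (21.8%) and 21 TAL1 locations (33.3%), and 9 of the latter were the cluster in Smtnl1. These shares of locations were not counted for all genes, so that they are not read as traits of the families.

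The share of GATA1 locations beside TAL1 was smaller at these genes than in the whole list, with an interval just below the latter. The whole list is not limited to gene windows, however. With locations summed over gene windows, 12 of 57 were cooccupied at these genes and 3535 of 10386 over all protein-coding genes. Whether the interval lies below that share was not tested. A TAL1 location lay under 40 bp from 12 of 55 (21.8%; 11.8 to 35%), against 35.9% of all 10290, and at 10 kb or more from 23 (41.8%; 28.7 to 55.9%), against 29.7%. The latter share was 53.1% (34.7 to 70.9%) of the 32 locations at Ube2 genes and 26.1% (10.2 to 48.4%) of the 23 at Psm genes. At 40 to 99 bp were 8 (14.5%), against 12%. Seen from TAL1, 14 of 63 (22.2%; 12.7 to 34.5%) had GATA1 under 40 bp away, against 27.5%, and 8 (12.7%) had none within 10 kb, against 18.1%, so that both intervals included the share of the whole list.

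**Figure D5:**
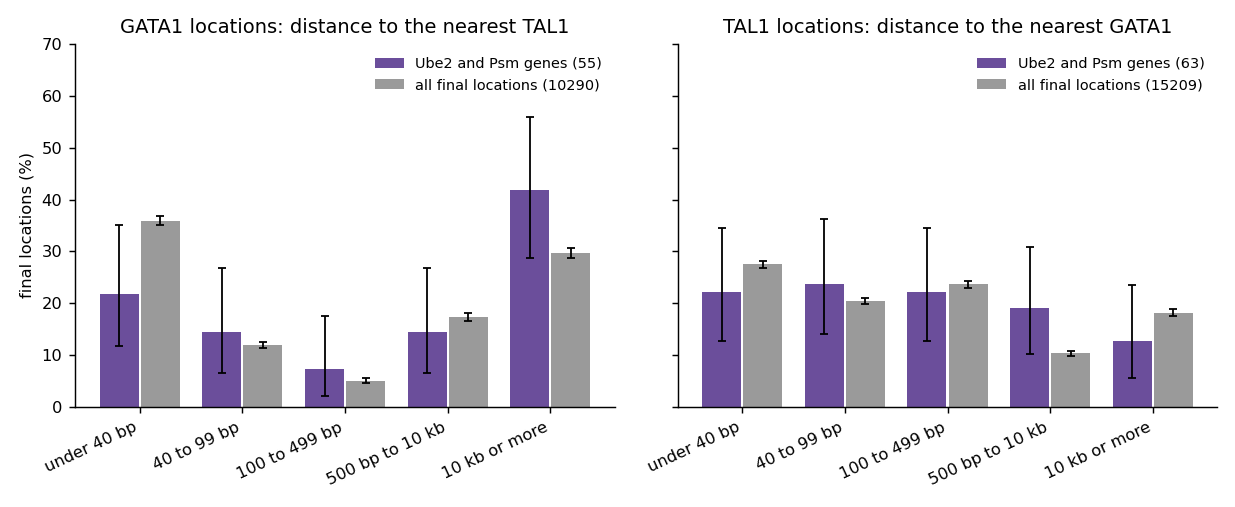
Share of final locations (%) by distance to the nearest final location of the other factor, for the 55 GATA1 and 63 TAL1 locations of the Ube2 and Psm genes and for the whole lists. Bars are shares and error bars are 95% exact binomial intervals. At these genes 21.8% of GATA1 locations had TAL1 under 40 bp away, against 35.9% of all, and 41.8% had it at 10 kb or more, against 29.7%.

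Locations under 500 bp from another of the same factor were called homotypic clusters. At these genes 31 of 63 TAL1 locations (49.2%; 36.4 to 62.1%) were in such clusters, against 64.4% of the whole list, and 6 of 55 GATA1 locations (10.9%), against 13.7%. The TAL1 clusters with most locations were those at Ube2l6 (9), Ube2h (4), Ube2v1 (4) and Psmc3 (4). The GATA1 clusters were pairs of locations 448 to 482 bp apart, at Psmd1, at Psme1 with Psme2, and at Ube2w, which adds ubiquitin to protein ends.

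WGATAA lay within 40 bp of 32 of 55 GATA1 locations (58.2%; 44.1 to 71.3%), against 66.5% of the whole list. At Ube2 genes it was at 15 of 32 (46.9%; 29.1 to 65.3%) and at Psm genes at 17 of 23 (73.9%; 51.6 to 89.8%). In windows moved by 1 kb to either side of the locations the motif was present in 3.64% (1 to 9.05%), and in 8.33% for the whole list. The interval at the locations thus lay above that of the windows beside them, and the upper limit for Ube2 genes lay below the share of the whole list. The MultiGPS command of the paper held settings for a motif search. Whether motifs entered the placement of the locations is not known, so the comparison with moved windows may not be independent of them.

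At TAL1 locations WGATAA was present in 28 of 63 (44.4%; 31.9 to 57.5%), against 45.9% of the whole list and 3.97% of moved windows. TG lay 7 or 8 bp upstream of it at 9 GATA1 locations (16.4%) and 16 TAL1 locations (25.4%), against 21.9 and 25%. An E-box, CAGATG or CAGCTG, lay within 40 bp of 21 TAL1 locations (33.3%; 22 to 46.3%), against 21.7%, and of 12 GATA1 locations (21.8%), against 17.2%. Of the 12 cooccupied GATA1 locations, 8 had WGATAA and 4 had TG upstream of it (33.3%; 9.92 to 65.1%), against 35.7% of all cooccupied GATA1 locations. A match of letters is a description of the sequence and does not show which bases were bound.

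Other genes of the route were counted in the same way, whichever gene had the closest start, and are to be read against the 23.9% (GATA1), 21.3% (TAL1) and 11.1% (cooccupied) of all protein-coding genes. The lists are short, with 4 to 10 genes each. Of the 8 genes of E1 activating enzymes, 6 had GATA1, 3 had TAL1 and 2 had a cooccupied location. Uba7, the E1 of ISG15 and thus the enzyme before Ube2l6, had 6 GATA1 and 17 TAL1 locations with 5 cooccupied, and Sae1, part of the SUMO E1, had 2 and 6. Of the 10 genes of the CTLH ligase, with which Ube2h works, 7 had GATA1, 5 had TAL1 and 2 had a cooccupied location. Ranbp10 had 6 GATA1 and 9 TAL1 locations, and Gid8, named 2310003C23Rik in the annotation, had 5 and 4.

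The lists below held fewer locations in sum, but their shares of genes with a location were not all below those of all protein-coding genes. Of 9 genes for receptors, shuttles and deubiquitinases of the proteasome, 2 had GATA1 and 3 had TAL1. Uchl5, a deubiquitinase, had 2 GATA1 locations and 1 of TAL1. Of 4 genes for proteasome assembly and transcription, 2 had GATA1 and 1 had TAL1. These were Ngly1, with 1 of each, and Nfe2l1, the activator of proteasome genes, with 1 of GATA1.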

How the data were processed

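GATA1 and TAL1 ChIP-exo was done in 25 libraries, 10 of GATA1 and 15 of TAL1. Per the labels, base calling used CASAVA 1.7 and bcl2fastq 2.15 and alignment to mm9 used Bowtie 1.00, BWA 0.6.2 and BWA 0.7.9a. The authors merged replicates, called peaks on each strand with GeneTrack and paired them, called locations with MultiGPS, and deposited 6 lists whose values are positions (a base on a chromosome) with no score. By the methods the GATA1 lists come from G1E-ER4 cells, while the labels also tie the G1E library to them, and which holds is not known. MultiGPS locations at most 100 bp from a peak pair were checked to be the same as the final lists for both factors.

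Genes were the protein-coding genes of GENCODE vM1 on the 20 chromosomes of the lists, with 22208 names in 22350 entries. For 136 names with several entries the longest was used. Start sites were those of all their transcripts (45939). All positions lay within the chromosome lengths of mm9. Shares have exact Clopper-Pearson intervals at 95%. No test was run, since the lists hold no replicates. Motifs were exact letters on both strands within 40 bp. WGATAA and the TG may lie on either strand. Counting, distances, clusters and motif search were tested on simulated data with known answers.

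The members, the lists of other genes and the rules were chosen with earlier results of these data known. Genes described by rule were those with a cooccupied location, the 5 of each family with the most locations of each factor (ties for the last place kept if at most 8 in all), Psmc3ip, and the 2 with the most locations in each other list. Further genes were named after their values were seen, and some genes that the rule takes in are not reported here. Of the other genes, Gid8 was found under an older symbol and Paaf1 was not matched. Sequences were read with samtools 1.23.1 and pysam 0.24.0, intervals came from scipy 1.17.1, tables from pandas 2.3.3 with numpy 2.4.6, and plots from matplotlib 3.10.9, all under Python 3.11.15.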

Additional observations from a re-analysis of the deposited data

How the results depend on the processing

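Of 60 alternative settings, 36 left a count within 1.5 times, or a share within its interval, and 24 moved it. In the gene body only, GATA1 lay at 11 Ube2 and 8 Psm genes, TAL1 at 6 and 6, and cooccupied locations at 2 and 2, and TAL1 at Ube2 genes fell to 8.22 per Mb, below the 8.89 of all genes. Within 50 kb, GATA1 lay at 34 Psm genes, TAL1 at 18 Ube2 and 33 Psm genes, and cooccupied locations at 10 and 20. Among peak pairs, GATA1 lay at 36 Psm genes and TAL1 at 21 Ube2 and 26 Psm genes. With WGATAA required, TAL1 lay at 7 Ube2 genes. With the closest start the gene's own, TAL1 lay at 8 Psm genes. The shares of all genes were not counted under either requirement, nor for cooccupied locations in the gene body only. With GATA1 and TAL1 under 100 bp apart, 10 Psm genes were cooccupied. WGATAA within 20 bp was at 40% of GATA1 and 27% of TAL1 locations, within 80 bp at 69.8% of TAL1, and the 4 bases GATA within 40 bp at 90.9 and 74.6%. With neighbors under 250 bp, 0 GATA1 locations were in clusters. The closest-start requirement within 10 kb and the per Mb alternatives were chosen after seeing the data. The cause of these changes was not tested, except that narrower or wider windows hold fewer or more locations by construction.

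No paired analysis was possible because the lists combine the libraries and carry no replicate numbers. Leaving out a library was not done for the same reason, and depth is unknown.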

Other observations

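MultiGPS locations without a peak pair within 100 bp, which the final lists leave out, were also present at these genes. There were 23 of GATA1 at 19 genes and 9 of TAL1 at 7 genes. WGATAA lay within 40 bp of 7 of the 23 and of 1 of the 9. In the whole lists, 10290 of 12781 GATA1 and 15209 of 17639 TAL1 MultiGPS locations were final. The share of all genes with such a left-out location, and the share of WGATAA among all of these, were not counted. Whether these genes stand out is therefore not known. At Ube2g1, 2 of the GATA1 locations lay 5 and 13 bp from a final TAL1 location, and at Psme1 and Psme2 a TAL1 location lay 18 bp from a final GATA1 location.

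Of the genes with no final location, Psmd14, the deubiquitinating subunit of the proteasome, and Psmf1, its inhibitor, had a GATA1 MultiGPS location in an intron. These lay 442 and 489 bp upstream of a start site inside the gene, but 48500 and 2387 bp past the beginning of the gene body. The windows of Psmd14 held 3 GATA1 and 5 TAL1 peak pairs and those of Psmf1 held 4 and 2. Peak pairs of both factors with no final location of either were found at 4 Ube2 genes (11.1%), namely Ube2d2, Ube2n, Ube2t and Ube2u. The same was found at 9 Psm genes (18%; 95% exact binomial interval, 8.58 to 31.4%), against 10.9% of all protein-coding genes. The Ube2 share was thus near that of all genes, and the Psm interval included the share of all genes.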
